A study of Homo sapiens with 60 samples.

Results

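The 38 genes described here encode lysosomal proteins and were found by their symbols among the 60675 genes of the deposited table. They were split by the place of their product. Soluble hydrolases and their helper proteins made up 20 genes, membrane proteins 6, and subunits or accessory proteins of the vacuolar proton pump (V-ATPase) 12. All 38 were found and passed the filter on low counts, among 17129 genes tested.

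The cells were A549, an established human lung carcinoma line with features of alveolar epithelium, and RNA-seq was done after 24 h of treatment, with 3 libraries in each of 20 groups. One group received wortmannin at 10 µM, an inhibitor of phosphoinositide 3-kinases that the study used as its positive control. The other treatments were hot water extracts of 6 herbal medicines. At 20, 100 and 500 µg/mL these were the gingers Zingiberis Rhizoma Recens (ZRR, the fresh form by name) and Zingiberis Rhizoma (ZR, the dried form), jujube (Zizyphi Fructus, ZF) and Pinelliae Tuber (PT). Doses of 9.2, 46 and 230 µg/mL were used for Scutellariae Radix (SR). For Coptidis Rhizoma (CR) the doses were 5.2, 26 and 130 µg/mL. The 3 doses of an extract are called low, medium and high. The reference cultures received DMSO vehicle, at 0.1% by the sample labels and 2% by the design text.

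Library totals ran between 17420400 and 36479600 estimated counts. The labels do not say whether the 3 libraries of a group came from separate cultures, so p-values measure the spread between these libraries, which may be technical. The 9 epithelial and A549 markers summed to between 15447 and 20388 CPM in a library, where CPM are read counts scaled to a common library total. The 5 leukocyte markers summed to between 0.687 and 3.65 CPM, and the 6 fibroblast and endothelial markers to between 0.669 and 2.88 CPM. Sample codes begin differently in vehicle, wortmannin and extract libraries, so that number cannot be told apart from treatment in any single comparison with vehicle. High and low doses of one extract share it. ZRR also shares it with ZR, Pinelliae with Scutellariae, and Coptidis with jujube. At the high doses, 35.1% of all genes tested had an adjusted p under 0.05 against vehicle with Coptidis and 0.00584% with jujube. This share was 23.9% with Scutellariae and 1.4% with Pinelliae, and 4.03% with ZRR and 5.35% with ZR. An effect of the number itself was not tested. Every comparison with vehicle uses the same 3 vehicle libraries.

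Lysosomes are acidic compartments that break down proteins, lipids, glycans and glycogen delivered by endocytosis and autophagy. Most of their hydrolases travel there on mannose 6-phosphate tags, and work best at the low pH that the V-ATPase sets up by pumping protons at the cost of ATP. Membrane proteins form the wall of the compartment, export its products and release its calcium. Many of these genes carry a short promoter element with the core CACGTG, bound by the transcription factors TFEB, TFE3 and MITF, which mTORC1 at the lysosome surface keeps in check.

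In vehicle cells the genes differed widely in level. Per kilobase of the longest annotated transcript, PSAP stood highest at 240 CPM per kb. PSAP encodes prosaposin, the precursor of the saposins that present lipids to hydrolases. CD63, a tetraspanin of late endosomes and lysosomes, followed at 211 CPM per kb. The lowest was GPNMB, a transmembrane glycoprotein, at 0.411 CPM per kb. The sialidase gene NEU1 was next to lowest at 2.84 CPM per kb, and the calcium channel gene MCOLN1 had 4.2 CPM per kb.

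RefSeq promoter windows on GRCh38.p14, 250 bases before to 50 bases after a start, were at hand for 27 of the 38 genes. The core CACGTG was in at least 1 window of 9 of these 27 genes (33.3%), against 8.77% of the 27305 genes in the table. The longer TCACGTG, read on either strand, was in 8 of 27 genes (29.6%), against 4.49% of all. It contains CACGTG, so the counts overlap. The 8 genes were CTSA, CTSD, GAA, NEU1, LAMP1, MCOLN1, ATP6V0B and ATP6V0D1, members of all 3 classes. The palindrome TCACGTGA was in 5 of 27 genes (18.5%), against 1.18% of all. A match describes letters in these windows and shows no binding. The windows below are those of 3 soluble members that stand out in the results and of 3 members, from the membrane and the pump, that moved differently. Capitals mark TCACGTG on either strand, and GRN has no match in its window. On GRCh38.p14 they lie at chr17:80101331-80101630 (GAA, plus strand), chr6:31862772-31863071 (NEU1, minus strand), chr17:44345052-44345351 (GRN, plus strand), chr13:113296989-113297288 (LAMP1, plus strand), chr19:7522374-7522673 (MCOLN1, plus strand) and chr16:67481108-67481407 (ATP6V0D1, minus strand).
GAA: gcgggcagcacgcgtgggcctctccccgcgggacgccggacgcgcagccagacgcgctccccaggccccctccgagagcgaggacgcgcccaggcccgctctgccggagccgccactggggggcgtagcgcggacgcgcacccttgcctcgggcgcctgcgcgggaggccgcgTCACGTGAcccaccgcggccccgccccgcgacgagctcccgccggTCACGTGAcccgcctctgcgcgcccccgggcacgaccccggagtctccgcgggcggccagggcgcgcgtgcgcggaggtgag
NEU1: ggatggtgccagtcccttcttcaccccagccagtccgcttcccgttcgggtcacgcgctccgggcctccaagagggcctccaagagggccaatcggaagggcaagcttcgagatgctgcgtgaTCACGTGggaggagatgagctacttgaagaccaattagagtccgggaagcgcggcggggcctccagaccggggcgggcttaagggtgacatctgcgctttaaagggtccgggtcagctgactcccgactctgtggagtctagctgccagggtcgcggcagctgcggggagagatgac
GRN: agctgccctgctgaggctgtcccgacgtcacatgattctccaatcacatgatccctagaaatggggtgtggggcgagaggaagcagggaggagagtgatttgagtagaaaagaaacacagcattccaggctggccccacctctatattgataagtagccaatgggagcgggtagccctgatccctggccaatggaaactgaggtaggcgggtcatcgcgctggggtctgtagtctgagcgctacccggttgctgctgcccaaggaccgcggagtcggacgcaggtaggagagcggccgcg
LAMP1: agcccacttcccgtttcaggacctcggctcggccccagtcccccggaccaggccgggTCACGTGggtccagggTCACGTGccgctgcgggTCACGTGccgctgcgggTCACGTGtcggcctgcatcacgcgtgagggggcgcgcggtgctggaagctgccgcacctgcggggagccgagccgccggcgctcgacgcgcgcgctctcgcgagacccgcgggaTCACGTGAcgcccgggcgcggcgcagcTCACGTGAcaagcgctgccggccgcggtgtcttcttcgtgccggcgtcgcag
MCOLN1: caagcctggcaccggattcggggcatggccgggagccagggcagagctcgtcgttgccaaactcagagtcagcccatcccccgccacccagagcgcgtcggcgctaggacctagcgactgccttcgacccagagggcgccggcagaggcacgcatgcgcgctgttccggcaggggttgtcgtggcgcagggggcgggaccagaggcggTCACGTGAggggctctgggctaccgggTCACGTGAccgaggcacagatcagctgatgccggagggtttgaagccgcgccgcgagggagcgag
ATP6V0D1: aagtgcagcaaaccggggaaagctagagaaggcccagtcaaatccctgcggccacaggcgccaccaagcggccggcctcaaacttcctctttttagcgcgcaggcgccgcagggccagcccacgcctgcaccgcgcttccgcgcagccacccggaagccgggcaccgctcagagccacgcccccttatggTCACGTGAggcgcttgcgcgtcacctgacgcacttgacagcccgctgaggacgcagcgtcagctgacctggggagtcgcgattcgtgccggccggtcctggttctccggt

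Across all 20 groups, 33 of the 38 genes passed the test for any difference, where 52% of all genes tested passed it. By class these were 19 of 20 soluble, 4 of 6 membrane and 10 of 12 V-ATPase members. CTSZ, CD63, GPNMB, ATP6V1D and ATP6AP2 did not pass. The log2 ratio of the highest to the lowest group mean had a median of 0.43 over soluble members, 0.40 over membrane members and 0.31 over V-ATPase members. NPC2 had the widest range at 0.88. Wortmannin was the highest of the 20 groups for 15 members and high dose Coptidis the lowest for 18. Vehicle lay low for several soluble members. Of the 19 treated groups, 0 had a mean below vehicle for CTSD and ARSA. For GAA, GRN, PSAP, ASAH1, HEXA, GUSB and CTSZ this number was 1 and for NEU1 it was 2, against 9 for GLA and 15 for LIPA.

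**Figure D1:**
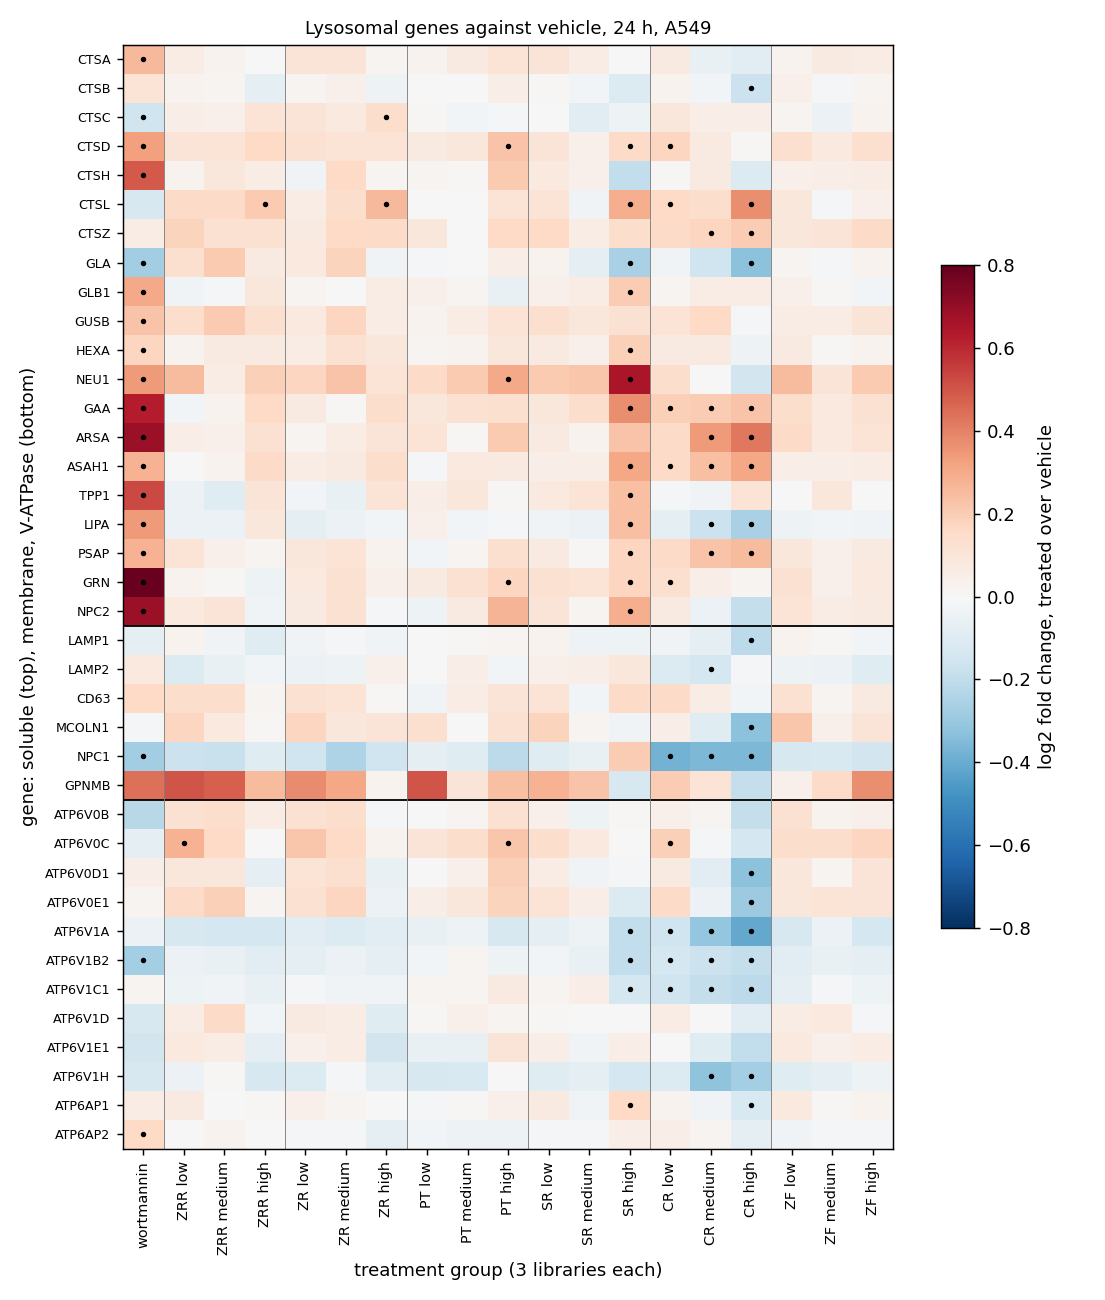
Colour shows the log2 fold change of each of the 38 genes (rows, by class) in each of the 19 treated groups (columns) against vehicle, and a dot marks an adjusted p under 0.05. Of single columns, wortmannin (15 rises) and high dose Scutellariae (12 rises) hold the most dots in the soluble rows. Coptidis adds 6 rises and 3 falls there at the high dose, 5 and 1 at the medium and 5 and 0 at the low dose. Dots in the V-ATPase rows lie mostly under Coptidis.

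With wortmannin most of the soluble lysosomal genes rose, while few pump and membrane genes were called. Of 20 soluble members 15 rose and 2 fell (median log2 fold change 0.29). Of 6 membrane members 0 rose and 1 fell (median 0.03), and of 12 V-ATPase members 1 rose and 1 fell (median -0.06). In all 20 of 38 members were called at an adjusted p under 0.05, where 25.3% of all genes tested were called, 13.4% higher and 11.9% lower, and the median over all genes was 0.01. DESeq2 called 21.

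GRN, which encodes progranulin, a secreted and lysosomal glycoprotein, moved most. It had 182, 174 and 173 CPM in the 3 wortmannin libraries, against 99, 98.8 and 107 CPM in the vehicle libraries. The groups were far apart, with means of 176 ± 4.73 and 102 ± 4.71 CPM (SD, n = 3 each) and a log2 fold change of 0.79 (SE 0.04, adjusted p = 1.55e-19). NPC2, the soluble protein that hands cholesterol on to NPC1, had 65, 71.9 and 65.5 CPM with wortmannin and 40.1, 40 and 45.6 CPM with vehicle. Its lowest wortmannin library was above every vehicle library, with a log2 fold change of 0.69 (SE 0.09, adjusted p = 1.7e-08). ARSA encodes arylsulfatase A, which removes sulfate from sulfatide. It had 17.5, 14 and 14.6 CPM with wortmannin and 9.26, 8.9 and 10.6 CPM with vehicle. The groups did not overlap, and the log2 fold change was 0.69 (SE 0.11, adjusted p = 2.36e-06).

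Other risers covered several substrates. GAA, the acid glucosidase that degrades glycogen, rose by 0.63, and TPP1, a tripeptidyl peptidase, by 0.53 on the log2 scale. CTSH, a cathepsin with aminopeptidase activity, rose by 0.49. LIPA, the acid lipase for cholesteryl esters, and NEU1 each rose by 0.34. CTSD, the main aspartyl protease, rose by 0.33 and GLB1, the beta-galactosidase, by 0.30. PSAP and ASAH1, the acid ceramidase, both rose by 0.28. The remaining soluble risers were CTSA at 0.26, GUSB at 0.23 and HEXA at 0.17. GUSB counts are uncertain, because 19 named pseudogenes of it are annotated, the highest at 5.18 CPM against 26 CPM for GUSB, and its call was lost without wortmannin replicate 1.

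Not every hydrolase rose. GLA, the alpha-galactosidase, had 92.1, 99.3 and 92.6 CPM with wortmannin, against 113, 114 and 118 CPM with vehicle. All wortmannin libraries lay below all vehicle libraries, and the log2 fold change was -0.28 (SE 0.07, adjusted p = 0.00259). CTSC, the dipeptidyl peptidase that activates granule proteases in leukocytes, fell by 0.16 on the log2 scale (adjusted p = 0.00455). CTSL, an endopeptidase, was at -0.13 and did not pass (adjusted p = 0.067). CTSB was at 0.11 and CTSZ at 0.06, and neither passed.

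The membrane member that fell was NPC1, which exports cholesterol from the lysosome. It had 53, 55.3 and 56.7 CPM with wortmannin and 69.6, 67.7 and 63 CPM with vehicle. The groups did not overlap, with a log2 fold change of -0.28 (SE 0.08, adjusted p = 0.00834). NPC1 and NPC2 thus moved in opposite directions in these cells. NPC1 had a mean below vehicle in 18 of the 19 treated groups, and NPC2 in 5. NPC1 shares 604 exon bases with RMC1 on the opposite strand, and NPC2 shares 103 with ISCA2. Without a stated strand setting, reads from these stretches cannot be assigned with certainty.

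Among pump genes ATP6V1B2, a subunit of the ATP-hydrolysing head, had 69.8, 62.9 and 63.1 CPM with wortmannin, against 76.9, 77.8 and 80.9 CPM with vehicle. It fell without overlap, with a log2 fold change of -0.27 (SE 0.05, adjusted p = 1.36e-05). The mean of ATP6V1B2 was below vehicle in 18 of the 19 treated groups. ATP6AP2, an accessory protein also known as the prorenin receptor, rose by 0.16 (adjusted p = 0.0189), a call lost without vehicle replicate 1 or 2 and without wortmannin replicate 1 or 2. The catalytic subunit gene ATP6V1A was at -0.05 (95% interval -0.15 to 0.05). MCOLN1 was at -0.01 (95% interval -0.19 to 0.17). Of the 8 members with TCACGTG in the windows printed or listed above, 4 rose and 0 fell with wortmannin: CTSA, CTSD, GAA and NEU1. Of the 19 members whose windows lack it, 8 rose and 3 fell.

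**Figure D2:**
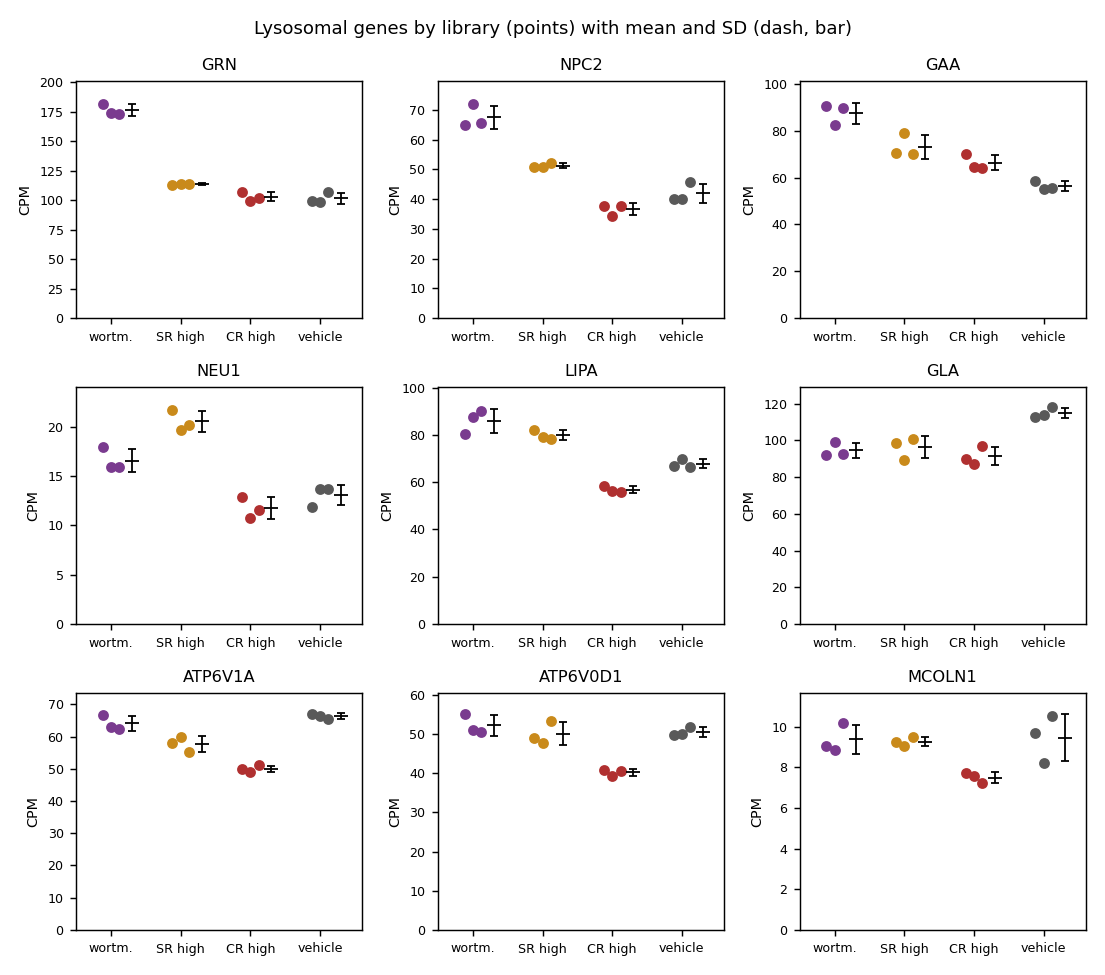
Each panel shows 1 gene in CPM (axis from 0), with a point per library and the mean and SD beside it, for wortmannin, high dose Scutellariae, high dose Coptidis and vehicle (3 libraries each). GRN and NPC2 are highest with wortmannin, NEU1 with Scutellariae, and LIPA is above vehicle in the first 2 groups and below it with Coptidis.

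High dose Scutellariae extract, from the root of Chinese skullcap, gave a similar count in the soluble class, with a smaller median and a different order of genes. Of 20 soluble members 12 rose and 1 fell (median log2 fold change 0.18). Of 12 V-ATPase members 1 rose and 3 fell (median -0.01). Of 6 membrane members 0 were called by edgeR and 0 by DESeq2. Only NPC1 among them had an unadjusted p under 0.05, as did 34.3% of all genes. The 17 called members compare with 23.9% of all genes called, 13% higher and 10.9% lower. The count was 11 without vehicle replicate 2. Both sets of folds rest on the same vehicle libraries.

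NEU1, the sialidase that trims terminal sialic acids, moved most. It had 21.7, 19.7 and 20.2 CPM in the high dose libraries, against 11.9, 13.7 and 13.7 CPM in the vehicle libraries. The lowest treated library was well above the highest vehicle library, with a log2 fold change of 0.65 (SE 0.08, adjusted p = 5.41e-09). At the low dose NEU1 had 14.8, 15.2 and 15.5 CPM, and at the medium dose 15.2, 14.7 and 15.7 CPM, which lay above vehicle without being called. Vehicle lay low for NEU1, whose mean was below vehicle in 2 of the 19 treated groups. GAA had 70.4, 79.2 and 70 CPM at the high dose and 58.8, 55.1 and 55.4 CPM with vehicle. It rose without overlap, with a log2 fold change of 0.37 (SE 0.06, adjusted p = 5.96e-07). ASAH1 had 70.5, 74 and 70.6 CPM at the high dose and 53.8, 60.9 and 58.2 CPM with vehicle. The groups were apart here too, with a log2 fold change of 0.31 (SE 0.05, adjusted p = 8.39e-07). Low and medium dose ASAH1 libraries lay between 57.2 and 62.9 CPM, close to vehicle.

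The other rises with Scutellariae were CTSL and NPC2 at 0.29, LIPA and TPP1 at 0.24, GLB1 at 0.20, HEXA at 0.19, PSAP and GRN at 0.17 and CTSD at 0.15. The NPC2 call was lost without vehicle replicate 1 or 2, and those of CTSD and PSAP without either of these and without 2 of the treated libraries. DESeq2 did not call CTSD. That of TPP1 was lost without vehicle replicate 2 or 3 and without treated replicate 2 or 3. GRN, the leading gene with wortmannin, thus stood among the smallest rises here.

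GLA fell with Scutellariae as well. It had 98.6, 89.4 and 101 CPM at the high dose, against 113, 114 and 118 CPM with vehicle, with no overlap and a log2 fold change of -0.26 (SE 0.07, adjusted p = 0.0066). This call was lost without treated replicate 2. ATP6V1A had 57.9, 59.9 and 55.1 CPM at the high dose and 67.1, 66.5 and 65.4 CPM with vehicle. It fell without overlap by 0.20 on the log2 scale (SE 0.05, adjusted p = 0.00351). ATP6V1B2 had 67, 68.8 and 68.7 CPM at the high dose, against 76.9, 77.8 and 80.9 CPM with vehicle. Its fall was also -0.20 (SE 0.05, adjusted p = 0.000716) with separate groups. ATP6V1C1, the subunit that joins head and stalk, fell by 0.14 on the log2 scale (adjusted p = 0.0191), a call lost without vehicle replicate 1 or 2 and without treated replicate 1 or 2. ATP6AP1 rose by 0.16 (adjusted p = 0.0157), although its treated and vehicle libraries overlapped, and the call was lost without vehicle replicate 1 or 2 and without treated replicate 1 or 3.

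Within Scutellariae, high against low dose called 12 members, 8 higher and 4 lower, where 20.4% of all genes were called. NEU1 (0.43), GAA (0.29), ASAH1 (0.26), LIPA (0.26), CTSL (0.18), GLB1 (0.17) and HEXA (0.12) rose against the low dose as they did against vehicle. The HEXA call was lost without high dose replicate 1 or 3 or low dose replicate 2 or 3, and that of CTSL without high dose replicate 3 or low dose replicate 2 or 3. GLA (-0.28), CTSH (-0.28), ATP6V1B2 (-0.18) and ATP6V1C1 (-0.16) fell, of which CTSH was lost whichever library was left out. The GLA call was lost without high dose replicate 2 or low dose replicate 1, and that of ATP6V1C1 without high dose replicate 1 or low dose replicate 3. NPC1 had 75.3, 78.3 and 77 CPM at the high dose, against 60.5, 61 and 64.8 CPM at the low dose. The high dose libraries were all above the low dose ones, with a log2 fold change of 0.31 (SE 0.08, adjusted p = 0.0044). Against vehicle NPC1 was at 0.20 and did not pass (adjusted p = 0.0641).

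With high dose Coptidis extract, from the rhizome of goldthread, the pump and membrane members that were called all fell. The soluble members moved both ways. Of 12 V-ATPase members 7 fell and 0 rose (median log2 fold change -0.19). Of 6 membrane members 3 fell and 0 rose (median -0.20), and of 20 soluble members 6 rose and 3 fell (median 0.01). The 19 called members compare with 35.1% of all genes called, 18.5% higher and 16.7% lower. DESeq2 called 20.

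ATP6V1A fell most. It had 49.8, 49.1 and 51.1 CPM at the high dose, against 67.1, 66.5 and 65.4 CPM with vehicle. The groups were widely separate, with means of 50 ± 1.06 and 66.3 ± 0.857 CPM (SD, n = 3 each) and a log2 fold change of -0.41 (SE 0.05, adjusted p = 1.83e-08). Vehicle was also the highest of the 20 groups for ATP6V1A, and all 19 treated groups had a lower mean. Of the other genes that fell here, NPC1 and ATP6V1B2 had a mean below vehicle in 18 of the 19 treated groups. For ATP6V1H this number was 17 and for ATP6V1C1 13, against 7 for ATP6V0D1, 5 for ATP6AP1 and 4 for ATP6V0E1. ATP6V0D1, a subunit of the membrane sector, had 40.8, 39.2 and 40.6 CPM at the high dose and 49.7, 49.9 and 51.9 CPM with vehicle. It fell without overlap, with a log2 fold change of -0.33 (SE 0.09, adjusted p = 0.00175). The other pump genes that fell were ATP6V0E1 at -0.29, ATP6V1H at -0.27, ATP6V1C1 at -0.21, ATP6V1B2 at -0.19 and ATP6AP1 at -0.12. The ATP6AP1 libraries overlapped with vehicle, and its call was lost without vehicle replicate 3 and without treated replicate 2 or 3. The 5 pump members that were not called, ATP6V0B, ATP6V0C, ATP6V1D, ATP6V1E1 and ATP6AP2, lay between -0.20 and -0.07. With the dependence of each library on transcript length as a covariate, 12 of 12 V-ATPase members were called lower. That setting also raised the calls over all members from 19 to 27, and its share of all genes called is not given here. The alternatives other than leaving out single libraries gave between 7 and 12 V-ATPase members lower.

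Of the membrane members, NPC1 had 50.3, 52.5 and 53.8 CPM at the high dose and 69.6, 67.7 and 63 CPM with vehicle. It fell without overlap, with a log2 fold change of -0.36 (SE 0.08, adjusted p = 0.000463). MCOLN1 had 7.72, 7.55 and 7.22 CPM at the high dose, against 9.68, 8.2 and 10.5 CPM with vehicle. The groups were apart but the vehicle libraries were spread, and the log2 fold change of -0.33 (SE 0.09, adjusted p = 0.00375) was not called without vehicle replicate 3. LAMP1, one of the most abundant lysosomal membrane glycoproteins, fell by 0.21 on the log2 scale (adjusted p = 3.39e-05). LAMP2 was at -0.01 and CD63 at -0.02, and neither passed. Of the 8 members with TCACGTG in their promoter windows, 1 rose and 3 fell with Coptidis. GAA rose, and LAMP1, MCOLN1 and ATP6V0D1 fell, while CTSA, CTSD, NEU1 and ATP6V0B were not called. The windows printed above were chosen by how the genes moved, and a role of the element was not tested. Of the 19 members without it, 2 rose and 4 fell.

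Among hydrolases, ARSA had 12.5, 12.8 and 12.9 CPM at the high dose of Coptidis, against 9.26, 8.9 and 10.6 CPM with vehicle. It rose without overlap, with a log2 fold change of 0.42 (SE 0.11, adjusted p = 0.00199). CTSL had 238, 237 and 245 CPM at the high dose and 178, 186 and 193 CPM with vehicle. It rose with a wide gap, the log2 fold change being 0.37 (SE 0.05, adjusted p = 2.92e-07). ASAH1 had 68.6, 74.5 and 70.9 CPM at the high dose and 53.8, 60.9 and 58.2 CPM with vehicle, for a log2 fold change of 0.31 (SE 0.05, adjusted p = 5.23e-07). PSAP rose by 0.25, GAA by 0.23 and CTSZ by 0.20. The CTSZ call was lost without treated replicate 3.

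GLA fell with Coptidis too, at 89.9, 87.4 and 97 CPM, against 113, 114 and 118 CPM with vehicle. The groups did not overlap, and the log2 fold change was -0.33 (SE 0.07, adjusted p = 0.000234). LIPA had 58.5, 56.1 and 55.7 CPM at the high dose and 66.7, 69.9 and 66.6 CPM with vehicle. It fell by 0.26 on the log2 scale (SE 0.04, adjusted p = 4.79e-06), again with no overlap. LIPA shares 65 exon bases with IFIT2, which averaged 0.697 CPM. CTSB, a cysteine protease, fell by 0.17 on the log2 scale (adjusted p = 0.00662), a call lost without vehicle replicate 3.

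**Figure D3:**
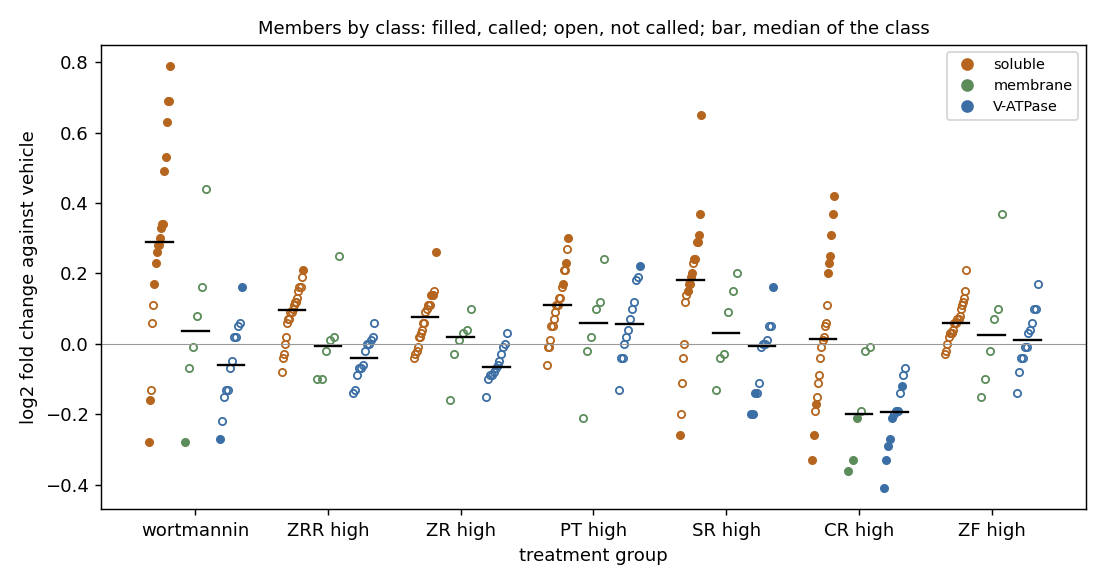
Points are the members' log2 fold changes against vehicle, by class, for wortmannin and the 6 high doses; filled points had an adjusted p under 0.05 and a bar marks the class median. The soluble median is 0.29 with wortmannin and 0.18 with Scutellariae, and the V-ATPase and membrane medians are -0.19 and -0.20 with Coptidis.

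Some changes with Coptidis were already called at the low and medium doses, and others were called at the high dose. At the low dose 10 members were called, 6 higher and 4 lower (17.7% of all genes), and at the medium dose 12, 5 higher and 7 lower (23.2%). NPC1 had 54.1, 53.7 and 46.5 CPM at the low dose and 50.1, 55.9 and 50.7 CPM at the medium dose. All 6 lay below the lowest vehicle library, with log2 fold changes against vehicle of -0.38 at the low and -0.36 at the medium dose. ATP6V1B2 and ATP6V1C1 were called lower at all 3 doses, with log2 fold changes between -0.21 and -0.14. At the low dose the NPC1 call held in 14 of 14 alternatives, that of ATP6V1B2 in 4 and that of ATP6V1C1 in 6. ATP6V1A stepped down with dose. It had 61.4, 55.9 and 61.1 CPM at the low dose and 52.9, 56 and 51.4 CPM at the medium dose, with log2 fold changes of -0.16 and -0.31 against vehicle. The low dose call of ATP6V1A held in 5 of 14 alternatives.

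ATP6V0E1 and ATP6V0D1 had means above vehicle at the low dose and were not called there. ATP6V0E1, a small membrane subunit, had 119, 120 and 126 CPM with vehicle, 130, 125 and 148 CPM at the low dose, 128, 112 and 112 CPM at the medium dose and 100, 98.5 and 98.6 CPM at the high dose. The high dose libraries were the lowest of the 4 sets. ATP6V0D1 had 54, 51.5 and 54.1 CPM at the low dose and 51.2, 44.8 and 46 CPM at the medium dose. Over all 12 V-ATPase members, 11 had group means that fell from the low through the medium to the high dose, and 0 had means that rose. Over the 20 soluble members 8 fell in this order and 6 rose. The order is a description of means and was not tested as a trend. Low dose replicate 3 stood apart in a technical measure described below, and the order was not recomputed without it.

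High against low dose Coptidis, which shares the sample code number and does not use the vehicle libraries, called 17 members, 2 higher and 15 lower, where 25.4% of all genes were called, 13.1% higher and 12.3% lower. Of V-ATPase members 5 fell and 0 rose (median -0.18). These were ATP6V0E1 at -0.44 (SE 0.09, adjusted p = 0.000147), ATP6V0D1 at -0.40 (SE 0.08, adjusted p = 0.000247), ATP6V0C at -0.33 (SE 0.06, adjusted p = 2.91e-05), ATP6V1A at -0.25 (SE 0.05, adjusted p = 0.000346) and ATP6AP1 at -0.16 (SE 0.05, adjusted p = 0.0144). ATP6V0C encodes the proteolipid that forms the proton-carrying ring. It had 92.5, 90.2 and 91 CPM at the high dose and 105, 122 and 116 CPM at the low dose, with vehicle at 94.7, 98.3 and 109 CPM. Against vehicle it was higher by 0.19 at the low dose (adjusted p = 0.0263), with overlapping libraries, and at -0.14 and not called at the high dose (adjusted p = 0.0605). MCOLN1 fell by 0.38 on the log2 scale and LAMP1 by 0.18. Of soluble members 8 fell, with NEU1 and GLA lowest at -0.30, and 2 rose, CTSL at 0.21 and ASAH1 at 0.15. The ASAH1 call was lost without high or low dose replicate 2, and that of ATP6AP1 without high dose replicate 2 or low dose replicate 3.

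The low dose Coptidis libraries differed from the high dose ones in a technical measure. Expression depended on transcript length to a different degree. The slope of log2 CPM over log2 length across genes was 0.272, 0.305 and 0.272 in the high dose libraries, against 0.224, 0.237 and 0.121 in the low dose libraries. With this slope as a covariate 5 of 12 V-ATPase members still fell and 0 rose. Without the 4 libraries of lowest slope, which include low dose replicate 3, 5 fell and 0 rose as well. The slope was 0.354, 0.331 and 0.283 in the vehicle libraries, so low dose Coptidis differed from vehicle in this measure too. With the slope as a covariate, 2 of the 10 low dose Coptidis calls against vehicle were kept. At the medium dose 10 of 12 were kept and at the high dose 19 of 19. Calls at low doses against vehicle were less stable. Summed over the 6 extracts they numbered 11, but 2 without vehicle replicate 1, 3 without vehicle replicate 2, 7 without Coptidis low dose replicate 2 and 3 without its replicate 3.

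**Figure D4:**
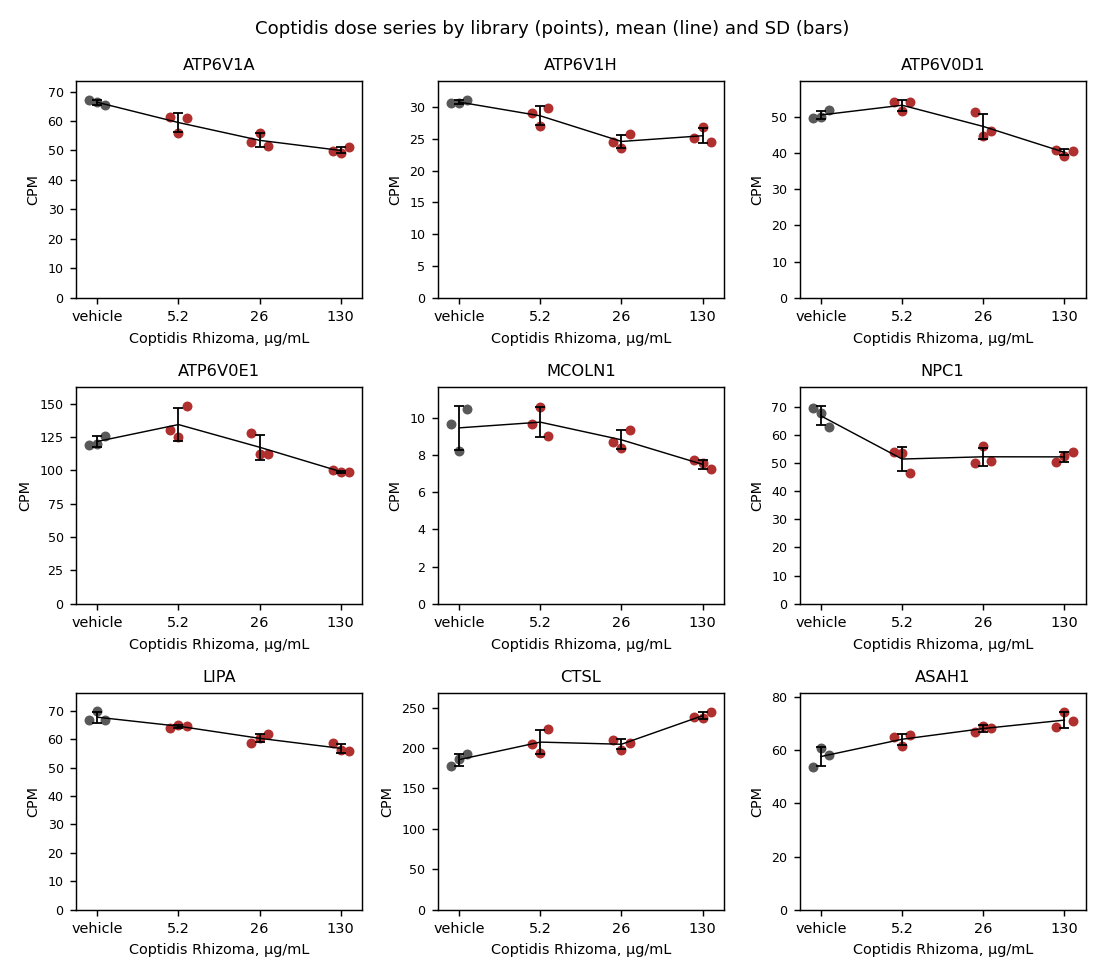
Each panel shows 1 gene in CPM (axis from 0) with vehicle and at 5.2, 26 and 130 µg/mL of Coptidis Rhizoma; points are libraries, the line joins group means and bars are SD (n = 3). NPC1 lies below vehicle at all 3 doses, ATP6V0D1, ATP6V0E1 and MCOLN1 are lowest at the high dose, and CTSL and ASAH1 are highest there.

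In the fit over all libraries few of these genes were called with the other 4 extracts. High dose Pinelliae raised 4 and lowered 0, where 1.4% of all genes were called. ATP6V0C had 116, 120 and 115 CPM at the high dose, against 94.7, 98.3 and 109 CPM with vehicle. It rose by 0.22 on the log2 scale (SE 0.06, adjusted p = 0.0455) with no overlap. CTSD had 215, 228 and 211 CPM at the high dose and 184, 181 and 194 CPM with vehicle. The log2 fold change was 0.23 (SE 0.05, adjusted p = 0.0214). NEU1 had 15.3, 17.3 and 15.9 CPM at the high dose and 11.9, 13.7 and 13.7 CPM with vehicle, for a log2 fold change of 0.30 (SE 0.08, adjusted p = 0.0381). GRN was the fourth, at 0.17. None of the 4 calls stood without vehicle replicate 1, without vehicle replicate 2 or without treated replicate 2, 2 stood without treated replicate 1 and 1 without replicate 3. Treated replicate 2 had a length slope of 0.141, against 0.276 and 0.275 in the other two and a median of 0.276 over all libraries. Compared with its low dose, high dose Pinelliae called 0 members with edgeR and 0 with DESeq2 (0.549% of all genes). At an unadjusted p under 0.05 there were 8 members, and 11.6% of all genes.

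With both gingers the gene that rose was CTSL. It had 220, 232 and 216 CPM at the high dose of ZR, against 178, 186 and 193 CPM with vehicle. The groups were apart, with a log2 fold change of 0.26 (SE 0.06, adjusted p = 0.00102). At the high dose of ZRR it had 217, 219 and 210 CPM, for a log2 fold change of 0.21 (SE 0.06, adjusted p = 0.0136). The ZRR call was lost without vehicle replicate 1 or 2 and without treated replicate 1 or 2, and was the only one of the 38 (4.03% of all genes). CTSC had 71.6, 69.7 and 68.1 CPM at the high dose of ZR and 63.4, 63.4 and 63.2 CPM with vehicle. The groups did not overlap, and CTSC rose by 0.14 on the log2 scale (adjusted p = 0.0475), a call lost whichever of the 6 libraries was left out, so 2 members were called (5.35% of all genes). CTSL rose in 5 of the 19 treated groups, counting high dose Scutellariae and Coptidis at the high and low dose. The low dose Coptidis call held in 5 of 14 alternatives.

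An unadjusted p under 0.05 was found for 1 member, and for 6.5% of all genes, with ZRR against ZR at 500 µg/mL. This contrast called 0 members with edgeR and 0 with DESeq2, where 0.712% of all genes were called. For CTSL that difference was -0.05 (95% interval -0.16 to 0.06). Compared with its low dose, ZR at the high dose called CTSL at 0.20 (4.64% of all genes), a call lost without high or low dose replicate 1 or 2. The same contrast of ZRR called ATP6V0C at -0.28 and LAMP1 at -0.13 (4.17% of all genes), neither of which stood without low dose replicate 2, a library of low length slope. The ATP6V0C call was lost without high dose replicate 3 as well, and that of LAMP1 without any single one but high dose replicate 2. ATP6V0C had 115, 134 and 117 CPM at the low dose of ZRR, which was higher than vehicle by 0.28 on the log2 scale (adjusted p = 0.038), a call lost without vehicle replicate 1 or 2 and without treated replicate 2 or 3. It was the only member called at the low dose of the 5 extracts other than Coptidis, of 190 tests, of which 28 had an unadjusted p under 0.05. Between 3.3% (PT) and 17.9% (ZRR) of all genes had such a p there. At the low dose the share of all genes called was 0.111% for ZRR, 0.00584% for ZR and SR, 0.0117% for ZF and 0% for PT. At the medium dose of these 5 extracts edgeR called 0 of 190 and DESeq2 1, with 27 at an unadjusted p under 0.05. Between 4.1% (PT) and 25.7% (ZR) of all genes had such a p. The share of all genes called there was 0.28% for ZRR, 0.922% for ZR, 0.0175% for PT, 0% for SR and 0.0117% for ZF. Without the libraries of low length slope, 10 members were called with medium dose ZR and 1 with medium dose ZRR. With only the libraries of each contrast fitted, 9 were called with medium dose ZRR and 3 with medium dose ZR. High dose jujube called 0 members with edgeR and 0 with DESeq2 against vehicle (0.00584% of all genes). At an unadjusted p under 0.05 there were 6 members, and 10.8% of all genes. Against its low dose edgeR called 0 members and DESeq2 0, where 0% of all genes were called. An unadjusted p under 0.05 was found for 0 members and for 2.3% of all genes.

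Direct contrasts between treatments, which do not use vehicle, gave the differences themselves. Among wortmannin, Scutellariae and Coptidis the sample codes again begin differently, so that number cannot be told apart from treatment here either. Scutellariae against Coptidis at the high doses, 230 and 130 µg/mL, called 13 members higher and 0 lower, where 21.9% of all genes were called, 11.1% higher and 10.8% lower. NEU1 was higher by 0.80 on the log2 scale (SE 0.08, adjusted p = 1.31e-11), NPC1 by 0.56 (adjusted p = 5.01e-07), and LIPA and NPC2 by 0.49. LIPA had 82.3, 79.2 and 78.4 CPM with Scutellariae, against 58.5, 56.1 and 55.7 CPM with Coptidis, and the vehicle libraries lay between them. Of V-ATPase members ATP6V0D1 (0.32), ATP6AP1 (0.28), ATP6V1E1 (0.25) and ATP6V1A (0.21) were higher with Scutellariae. The ATP6V1E1 call was lost without Scutellariae replicate 3 or Coptidis replicate 2.

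Wortmannin against high dose Coptidis called 23 members higher and 2 lower, where 40% of all genes were called, 20.2% higher and 19.9% lower. The higher ones included NPC2 at 0.88 (SE 0.09, adjusted p = 4.38e-12), GRN at 0.78 (SE 0.04, adjusted p = 2.28e-20) and 6 of 12 V-ATPase members. CTSL at -0.51 and CTSC at -0.21 were the lower ones. Wortmannin against high dose Scutellariae called 11 members higher and 4 lower, where 32.1% of all genes were called. CTSH (0.69), GRN (0.63), ARSA (0.46) and NPC2 (0.40) led the higher ones. NPC1 (-0.48), CTSL (-0.43), NEU1 (-0.31) and CTSC (-0.12) were the lower ones. The CTSC call was lost without wortmannin replicate 1 or Scutellariae replicate 1.

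Further lysosomal genes outside the 38 were read in the same fit, in which 25.3% of all genes were called with wortmannin, 23.9% with Scutellariae and 35.1% with Coptidis. Of 36 other hydrolases and soluble proteins, 18 rose and 1 fell with wortmannin, led by IDUA, which degrades glycosaminoglycans, at 1.12 and by the protease CTSF at 0.75. With high dose Scutellariae 10 rose and 3 fell, and with high dose Coptidis 5 rose and 8 fell, the lowest being CTSV at -0.89. Of 23 other membrane proteins 9 rose and 0 fell with wortmannin, 8 rose and 1 fell with Scutellariae, and 5 rose and 5 fell with Coptidis. Their median log2 fold change with Coptidis was -0.07. Of 11 other pump subunits tested (of 13), 3 rose and 0 fell with wortmannin, including TCIRG1, a membrane sector subunit, at 0.56. With Scutellariae 3 rose and 0 fell. With Coptidis 2 rose and 1 fell, the 1 being TCIRG1 at -0.27. The median of these other subunits with Coptidis was 0.06, so the fall of the pump members was not seen over this list. Of 9 genes of sorting to the lysosome, 3 rose and 1 fell with wortmannin, 1 rose and 3 fell with Scutellariae, and 0 rose and 4 fell with Coptidis. SORT1, the sorting receptor sortilin, was at 0.47 with wortmannin and at -0.39 with Coptidis.

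Of 17 tested genes (of 18) for the MiT/TFE factors and their control at the lysosome, 2 rose and 3 fell with wortmannin, 5 rose and 0 fell with Scutellariae, and 1 rose and 2 fell with Coptidis, against the same shares of all genes. FLCN, a part of the complex that acts on the RagC and RagD GTPases, averaged 22.3 CPM with wortmannin, 37.3 CPM with Scutellariae, 26.1 CPM with Coptidis and 27 CPM with vehicle. It fell with wortmannin (log2 fold change -0.28, adjusted p = 0.000217) and rose with Scutellariae (0.46, adjusted p = 5.66e-09). Among the factors, TFE3 averaged 115 CPM with high dose Coptidis and 90.5 CPM with vehicle, a rise of 0.34 (SE 0.04, adjusted p = 3.53e-10). MITF averaged 17.1 CPM with high dose Scutellariae, 11.7 CPM with wortmannin, 12.7 CPM with high dose Coptidis and 12.9 CPM with vehicle. With Scutellariae it was higher at the high than at the low dose by 0.56 (SE 0.07, adjusted p = 3.74e-08). TFEB stood between 2.99 and 3.83 CPM in wortmannin, high dose Scutellariae, high dose Coptidis and vehicle. These are transcript levels, and the place of these factors in the cell was not measured.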

How the data were processed

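The authors' deposited table holds expected counts per Ensembl gene, not normalised, judged by its values, which are not whole in 9.06% of cases. Tools listed in the submitters' processing notes are RSEM 1.3.3, STAR 2.7.3a, Trim Galore 0.6.5 and FastQC 0.11.9, with GRCh38 as build. For the annotation and the strand setting the sources used here give nothing. Of 269 library columns 60 carry labels of these samples and 209 were not used. A current table named 56558 identifiers and GENCODE 29 another 497, while 3620 had no symbol (0.0579% of counts).

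Expected counts were rounded and fitted with edgeR 4.0.16 under R 4.3.3 (TMM, filterByExpr, robust quasi-likelihood, 1 column per group, 40 residual degrees of freedom). p-values (two-sided) were adjusted by Benjamini-Hochberg over all 17129 genes of a comparison, and an adjusted p under 0.05 was called. CPM use TMM-adjusted library sizes. The common coefficient of variation was 7.04%, which with 3 libraries per group sets the precision. The members, classes and lists were chosen with earlier results of these data known. Values per library are given for the 3 largest called rises and falls of wortmannin and each high dose, plus members at the other doses or in direct contrasts. Other lists are given by counts and their largest called changes. The lowest correlation between replicates was 0.982, and 0 pairs of libraries were identical.

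On data simulated for wortmannin against vehicle (16689 genes), 81% of 100 genes with a 1.5-fold change and 93% of 100 with a 2-fold change were recovered by edgeR, which also called 6 others. Most changes reported here are smaller than 1.5-fold, and the recovery of such changes was not simulated. The simulated counts held no differences in length slope between libraries. The number of others called may thus differ in the real libraries. Alternatives were DESeq2 1.42.0, its size factors, no filter on low counts, replicate number as a block, the length slope as a covariate (genes with a mean log2 CPM of at least 1), only the libraries concerned, and each library left out. Leaving out the 4 libraries with a length slope under 50% of the median was added after seeing the data. Promoter sequences are RefSeq's.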

Additional observations from a re-analysis of the deposited data

Results flagged for a closer look

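The 3 differences here stand out because a gene was called in opposite directions against vehicle by 2 treatments and the direct contrast was called as well. LIPA rose with wortmannin and fell with high dose Coptidis, and wortmannin against Coptidis gave a log2 difference of 0.60 (adjusted p = 2.74e-16), with 80.3, 87.6 and 90.1 CPM in the wortmannin libraries and 58.5, 56.1 and 55.7 CPM in the Coptidis libraries. It also rose with high dose Scutellariae, and Scutellariae against Coptidis gave 0.49 (adjusted p = 6.97e-13). All LIPA calls in these 3 comparisons with vehicle held in 14 of 14 alternatives. ATP6AP1 rose with Scutellariae and fell with Coptidis, with a log2 difference of 0.28 (adjusted p = 1.53e-05). It had 100, 95 and 101 CPM with Scutellariae, against 85, 78.4 and 80 CPM with Coptidis. Its vehicle libraries overlapped with both groups, and its calls against vehicle held in 8 of 14 alternatives with Scutellariae and in 9 of 14 with Coptidis.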

How the results depend on the processing

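Of 171 calls of members in comparisons of 2 groups, 100 held under every alternative run and 0 reversed. DESeq2 kept 169, its size factors 167, the length slope as covariate 156, leaving out the libraries of low length slope 162, fitting only the libraries concerned 141 and no filter on low counts 120. Replicate numbers did not pair the libraries (in 0 of 29 comparisons did every same-numbered pair correlate over 0.1), and a replicate block kept 171 of 171 calls. Shares of all genes called under the alternatives are not given here, so a changed count may not be particular to these genes. For ZRR high dose against vehicle (1 member) no filter gave 0, the length slope 10 and block plus length slope 9. It was 4 without the libraries of low slope and 2 with only the libraries concerned. The 10 were 5 higher and 5 lower. For ZR high dose (2) size factors gave 1, no filter 1, the length slope 9 and block plus length slope 9. For PT high dose (4) it was 0 with only the libraries concerned. For ZRR, high against low dose (2) gave 1 without the filter, 6 with the length slope, 6 with block and length slope and 0 with only the libraries concerned. For ZR (1) this contrast gave 2 with size factors, DESeq2, replicate block, length slope, or block and length slope, and 0 without the filter or with only the libraries concerned. For PT (0) it gave 1 without the filter, with the length slope and with block and length slope, and 2 without the libraries of low slope. For SR (12) it gave 7 without the filter and 20 with the length slope, with or without block. The medium doses summed (12) gave 26 without the libraries of low slope and 24 with only the libraries concerned. Of the 26, ZR held 10 (9 higher and 1 lower), and of the 24, ZRR held 9 (7 higher and 2 lower). Both had 0 in the fit over all libraries. The low doses summed (11) gave 4 without the filter, 4 without the libraries of low slope and 1 with only the libraries concerned. SR against CR high dose (13) gave 25 with the length slope, with or without block. It gave 21 without the libraries of low slope and 20 with only the libraries concerned. The 25 were 22 higher and 3 lower, while the 13, the 21 and the 20 were all higher. The cause was not tested.

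Leaving out 1 library at a time gave between 30 and 34 members for any difference, 18 and 20 for wortmannin, 0 and 2 for ZRR, 1 and 2 for ZR, 0 and 3 for PT, 11 and 16 for SR, 16 and 20 for CR and 0 for ZF against vehicle. High against low dose gave 0 to 3 for ZRR, 0 to 2 for ZR, 0 for PT and ZF, 8 to 11 for SR and 12 to 20 for CR. The medium doses gave 9 to 16 and the low doses 2 to 12. ZRR against ZR gave 0, SR against CR 10 to 14, wortmannin against CR 22 to 24 and wortmannin against SR 10 to 17. Apart from leaving out single libraries, the alternatives gave between 7 and 12 V-ATPase members lower with high dose Coptidis and 0 higher.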

Other observations

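LAMP3, an inducible member of the LAMP family that is not among the 38 genes, had 84, 85 and 64 reads in the high dose Coptidis libraries, against 5, 2 and 1 reads in the vehicle libraries. It had 10, 19 and 2 reads at the low dose and 29, 25 and 17 at the medium dose. The called rise at the high dose (adjusted p = 3.48e-12) rests on 8 vehicle reads in all, so the size of the fold is poorly fixed. LAMP1 fell at the same dose and LAMP2 was not called. IDUA rose with wortmannin, high dose Scutellariae and high dose Coptidis, averaging 6.49, 4.91 and 5.44 CPM in these groups, against 3 CPM with vehicle. The exons of ATP6V1D share 269 bases with EIF2S1 on the opposite strand, which averaged 165 CPM against 42.2 CPM for ATP6V1D, so its value is uncertain without the strand setting.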
